A study of Mus musculus with 4 samples.

Results

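In digitonin-permeabilized RAW264.7 cells, a mouse macrophage line, 1 library from cells given 10 µM of the disaccharide Manβ1-4GlcNAc (ManGn) for 24 h was set against 1 library from cells given ultrapure water. These are 2 of the 4 libraries of the series. The other two hold cells given the water of a mock fOS extraction and cells given 10 µM of the free oligosaccharide (fOS) pool of Trex1-/- cells. Every culture was grown in DMEM with 25 mM glucose and 10% serum at passage 2 to 10, and every culture, controls included, was permeabilized. A gene entered the comparison if its FPKM, fragments scaled by transcript length and library total as the authors computed it, was at least 1 with ManGn or with water, which held for 11003 of 17655 genes. A gene high in 1 of the 2 libraries could enter through that library alone: 372 tested genes were under FPKM 1 with water and 340 with ManGn. Each gene is given as the log2 ratio of FPKM plus 0.1 with ManGn over that with water, and the added 0.1 makes the differences of weakly expressed genes look smaller than they are. With 1 library per condition there is no replicate check, no test and no p-value, so "higher" and "lower" describe these libraries only. To see which pathways hold against a second control, every ratio was repeated over the mock extraction library. That culture got no ligand either, but the water of a mock extraction.

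Free oligosaccharides are by-products of N-glycosylation, the transfer of a preassembled glycan to proteins in the endoplasmic reticulum (ER). Glycans that are released are trimmed in the cytosol and the lysosome by a set of glycosidases, and ManGn is the mannose and N-acetylglucosamine unit from the core of such glycans. Macrophages sense microbial and self molecules with membrane and cytosolic receptors, and a stimulus commonly changes their chemokines, lysosomes, metabolism and antigen presentation together.

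The depth, estimated from the step size that 1 read makes in small FPKM values, was 9850000 reads with water, 9890000 with the mock extraction and 9970000 with ManGn. For a transcript 2000 nucleotides long, 1 FPKM then corresponds to 19.7 to 19.9 reads. The intervals on single genes given further on are 95% intervals on the ratio of estimated reads, and they cover counting error only. The 10 macrophage markers were all at FPKM 1 or more in each library, with a summed FPKM of 9694 with water, 10110 with the mock extraction and 9147 with ManGn. Markers of B cells, fibroblasts, epithelium, endothelium and erythroid cells were all below 1, those of T cells reached 1 for at most 2 genes and those of neutrophils for at most 1. As in any bulk RNA, fewer cells of a kind and less RNA per cell cannot be told apart.

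With ManGn 1055 genes were at least 2-fold higher than with water, 9.59% of those tested, and 822 were at least 2-fold lower, 7.47%. Of the higher genes 60 were listed at 0 with water, and of the lower genes 48 at 0 with ManGn. Over the mock extraction the same genes gave 411 higher, 3.74%, and 343 lower, 3.12%. These 4 percentages are the background for every list below. The 2 untreated libraries differed from each other as well, with 967 of the same genes at least 2-fold higher and 758 lower in the mock extraction than in water. The ratios over water and over the mock extraction share the ManGn library, and those of ManGn and of the mock extraction over water share the water library. At least 2-fold higher than both controls were 201 genes, and at least 2-fold lower than both were 159. A further 316 genes that were higher than water were at or below the mock extraction, and 206 that were lower than water were at or above it. The median log2 ratio over all tested genes was 0.05 over water and -0.02 over the mock extraction.

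Pathways were described with 53 gene lists, each summarised by the median log2 ratio of the members that entered the comparison. A list was called higher or lower over water at a median of at least 0.5 or at most -0.5. There were 11 higher and 9 lower lists, and 33 lay between. Of the 11 higher lists, 5 kept a median of at least 0.5 over the mock extraction: chemokines, matrix proteases and their inhibitors, small nucleolar RNA genes, osteoclast differentiation and targets of the oxidative stress factor NRF2. The other 6 had a smaller positive median: serpins, ribosome biogenesis, proteasome subunits, microRNA genes, feedback genes of the kinase ERK, and actin and adhesion genes. Of the 9 lower lists, 1 held, that of MHC class II. A smaller negative median was left for 3 lists: cytosolic ribosomal proteins, the MYC network and MHC class I presentation. The replication-dependent histones came to 0, and 4 lists turned positive: the hypoxia response, FOXO targets, p53 targets and the circadian clock. Among the 20 histone genes tested, 7 passed the filter only by their water value and 3 only by their ManGn value. For such genes the filter fixes the direction, so the histone median of -0.61 over water partly reflects the filter. Of the 33 lists that lay between, 30 lay there over the mock extraction too, 1 was higher (immediate-early factors) and 2 were lower (ATF4 targets and cholesterol efflux).

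**Figure D1:**
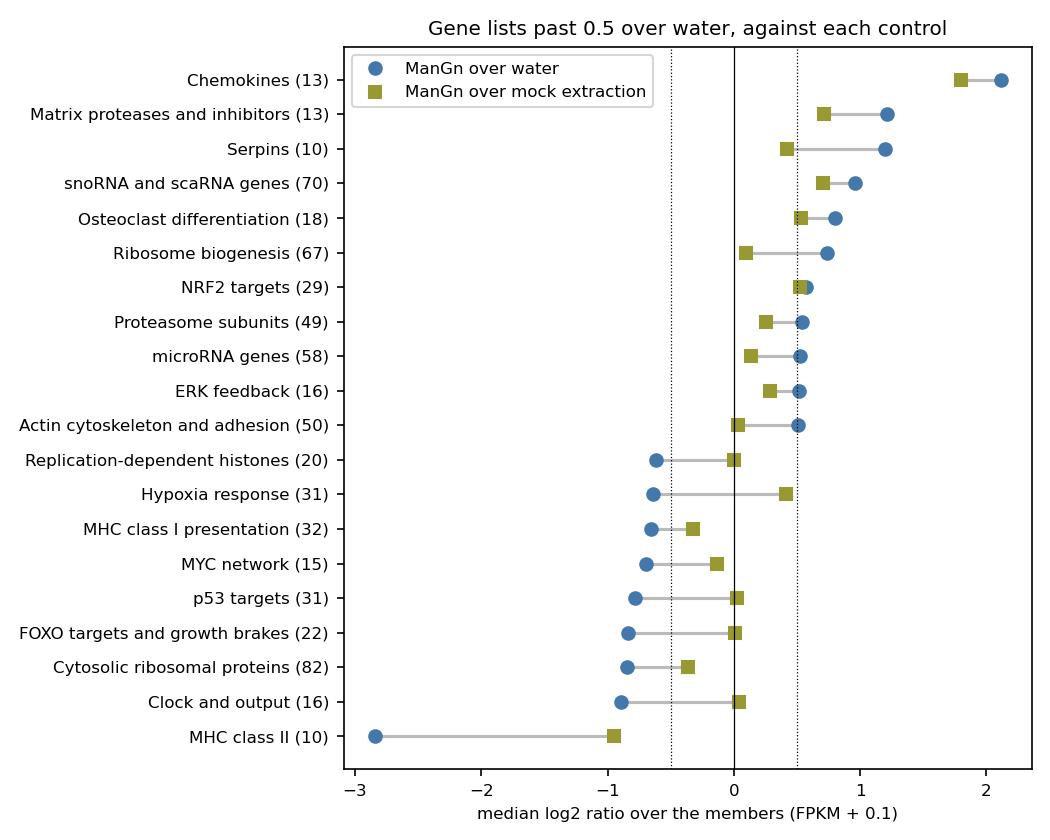
Median log2 ratio (FPKM plus 0.1) of each gene list past 0.5 in either direction over water, with circles for ManGn over water, squares for ManGn over the mock extraction and the number of tested members in brackets. Chemokines keep 1.80 of 2.11 over the mock extraction, and the hypoxia response goes from -0.64 to 0.41.

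To show the regulatory sequence of genes whose lists are described below, windows of RefSeq promoters (build GRCm38.p6) were searched on both strands for short factor motifs in the 250 bases before and 50 after each annotated start. Of the tested genes 8774 had a window. The AP-1 motif TGANTCA was in 5.92% of these and in 2 of the 10 genes of the protease list, Mmp12 and Plaur, and 0 of 14 of the osteoclast list. The antioxidant response element TGACNNNGC, which NRF2 binds and which overlaps AP-1 in the letters TGAC, was in 17.1% of all and in 8 of 23 NRF2 targets. The Y box ATTGG, a binding site of the factor NF-Y in MHC class II promoters, was in 43.6% of all and in 6 of 7 genes of the MHC class II list. The hypoxia response element ACGTG was in 30.3% of all and in 19 of 27 hypoxia genes. The NF-κB motif was in 5.97% of all and in 3 of 8 chemokines. A match describes the letters and does not show that a factor binds there. Only some of the genes with a match are shown. Among those with none before their start site were Spp1 (AP-1), Srxn1, Fth1 and Me1 (antioxidant response element), Adm (hypoxia response element) and Ccl3 (NF-κB). Each sequence below is the match with up to 30 bases on either side, ending at or before the start site, written 5′ to 3′ on the strand of the gene with every match in capitals. They are Mmp12 at chr9:7347300-7347366 (plus strand, the second of its 2 annotated starts), Plaur at chr7:24462384-24462450 (plus), Gclm at chr3:122245393-122245461 (plus), H2-Aa at chr17:34287837-34287901 (minus), H2-Eb1 at chr17:34305778-34305866 (plus), Slc2a1 at chr4:119108679-119108743 (plus), Bnip3 at chr7:138909579-138909644 (minus) and Cxcl2 at chr5:90903772-90903842 (plus).
Mmp12: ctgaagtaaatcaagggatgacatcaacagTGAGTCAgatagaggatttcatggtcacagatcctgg
Plaur: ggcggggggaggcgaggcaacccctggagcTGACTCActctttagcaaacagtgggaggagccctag
Gclm: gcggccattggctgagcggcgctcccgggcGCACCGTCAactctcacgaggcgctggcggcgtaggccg
H2-Aa: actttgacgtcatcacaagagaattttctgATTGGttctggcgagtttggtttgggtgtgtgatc
H2-Eb1: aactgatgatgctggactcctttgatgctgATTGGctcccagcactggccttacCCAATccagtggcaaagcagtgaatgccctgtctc
Slc2a1: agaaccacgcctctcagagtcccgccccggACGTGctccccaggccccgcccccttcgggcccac
Bnip3: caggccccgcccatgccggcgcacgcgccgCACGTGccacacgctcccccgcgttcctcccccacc
Cxcl2: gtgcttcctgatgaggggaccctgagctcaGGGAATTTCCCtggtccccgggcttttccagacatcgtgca
In H2-Aa and H2-Eb1 the Y box starts 48 and 59 bases before the start site, and H2-Eb1 has another on the opposite strand. The AP-1 letters start 44 bases before the start site in Mmp12 and 69 in Plaur, and in Bnip3 the element ACGTG lies on both strands within 1 palindrome.

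Part of the genes of bone and matrix resorption were higher with ManGn than with either control. The osteoclast list holds genes of the multinucleate cells that macrophages of this line form when given the cytokine RANKL. Of 23 listed genes 18 were tested, and 8 were at least 2-fold higher over water and 0 lower, while 3 were higher and 1 lower over the mock extraction (median 0.80, 0.53 over the mock extraction). Atp6v0d2 (Entrez Gene 242341), a subunit of the vacuolar proton pump needed for osteoclast fusion, was at FPKM 5.2 with water, 12.3 in the mock extraction and 139.9 with ManGn. ManGn stood 26.9-fold (interval 22.6 to 32.3) above water and 11.3-fold (10.1 to 12.8) above the mock extraction. The resorption protease gene Ctsk, cathepsin K, was at 56.5 with water, 112 in the mock extraction and 206 with ManGn, and its log2 ratio over the mock extraction was 0.88. Acp5, the tartrate-resistant acid phosphatase used to stain osteoclasts, was at 1.03 with water, 1.32 in the mock extraction and 4.13 with ManGn, all low values. Car2, the carbonic anhydrase that supplies protons for acid secretion, was at 9.33 with water, 5.4 in the mock extraction and 22.9 with ManGn (named after its values were seen). The fusion receptor gene Dcstamp was at 1.3, 5.93 and 10.6 in the same order, so the mock extraction was nearer to ManGn than to water. The master factor Nfatc1 and the RANKL receptor Tnfrsf11a were not 2-fold apart, with log2 ratios of -0.26 and 0.21 over water and -0.11 and -0.24 over the mock extraction, and Mmp9 stayed below FPKM 1 in the water, mock extraction and ManGn libraries.

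Of 28 genes for matrix proteases, their inhibitors and the urokinase system 13 were tested, and 7 were at least 2-fold higher over water and 6 over the mock extraction, with 0 lower over either. Plau, the urokinase plasminogen activator, was at FPKM 46.4 with water, 46.5 in the mock extraction and 124 with ManGn, the same in both controls, and ManGn stood 2.68-fold (interval 2.5 to 2.88) above water. Its receptor gene Plaur was at 14.4 with water, 27.1 in the mock extraction and 80.6 with ManGn, 2.48 over water and 1.57 over the mock extraction on the log2 scale. Spp1, osteopontin, a secreted adhesion protein of macrophages and bone, was at 946 with water, 1687 in the mock extraction and 6087 with ManGn. Spp1 was the most abundant of the 13 with ManGn, and its ratio was 2.69 over water and 1.85 over the mock extraction. The macrophage elastase Mmp12 was at 0.33 with water, 0.6 in the mock extraction and 14.4 with ManGn, which is 24.02-fold (15.8 to 39.9) above the mock extraction, on 21.4 estimated reads there. Mmp19 (3.6, 4.01 and 8.49) and Adamts1 (1.45, 0.62 and 4.44), also metalloproteinases and named after their values were seen, were lower in level but at least 2-fold above both controls. The inhibitor Timp2 was level at 9.24, 10.1 and 10.2, and Timp1 and Mmp13 were listed at 0. The protease inhibitors of the serpin family had a median of 1.20 over water and 0.42 over the mock extraction. Of 10 tested serpins, 4 were under FPKM 1 with water and entered through ManGn alone.

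Lysosomal genes had 7 of 59 at least 2-fold higher and 3 lower over water, 3 higher and 3 lower over the mock extraction, and a median of 0.33 over water and 0.18 over the mock extraction. Ctsd, the aspartic protease cathepsin D, was at FPKM 675 with water, 883 in the mock extraction and 2340.0 with ManGn, 3.47-fold (interval 3.4 to 3.53) above water and 2.65-fold (2.6 to 2.69) above the mock extraction. The cysteine protease gene Ctsb was at 598 with water, 894 in the mock extraction and 1326 with ManGn, past 2-fold over water only. Atp6v1h, a proton pump subunit named after its values were seen, had ratios of 1.34 over water and 1.07 over the mock extraction. Against these, Ctsf, cathepsin F, was lower than both controls at 45.6, 33.2 and 14.9. Tfeb, the factor that drives lysosome genes, and the membrane protein gene Lamp1 were within 2-fold of both controls.

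Among genes of lipid uptake and storage 7 of 19 were at least 2-fold higher and 1 lower over water, 3 were higher and 0 lower over the mock extraction, and the list median was 0.41 and 0.09. Cd36, the scavenger receptor for oxidized lipid, was at FPKM 35.4 with water, 62.8 in the mock extraction and 178 with ManGn, a ratio of 2.33 over water and 1.498 over the mock extraction. The lipid droplet gene Plin2 and the scavenger receptor gene Msr1 went with the mock extraction instead, Plin2 at 28.7, 91.7 and 99.2 and Msr1 at 31.2, 168 and 130.0. Sterol synthesis held 0 higher and 4 lower of 25 genes over water, among them the regulator Srebf2 at 74.7, 46.98 and 33.4. Over the mock extraction 0 of the 25 were past 2-fold, and the median went from -0.34 to 0.27. The cholesterol exporter gene Abcg1 was at 13.8, 44.4 and 19.7, lower with ManGn than with the mock extraction only. The efflux list had a median of -0.16 over water and -0.52 over the mock extraction. Fatty acid synthesis was level, with 1 gene higher and 1 lower of 14 over water.

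NRF2 is a transcription factor that is degraded in resting cells and turns on glutathione, thioredoxin and heme genes under oxidative or electrophilic stress. Of 34 listed targets 29 were tested, 9 were at least 2-fold higher and 1 lower over water, and 7 were higher and 0 lower over the mock extraction. The median was 0.57 over water and 0.53 over the mock extraction, and 6 genes were at least 2-fold above both. Hmox1 (15368), heme oxygenase, was at FPKM 92.1 with water, 55.9 in the mock extraction and 268 with ManGn, 2.9-fold (interval 2.73 to 3.09) above water and 4.79-fold (4.45 to 5.16) above the mock extraction. Gclm, the modifier subunit of the first enzyme of glutathione synthesis, was at 9.46 with water, 8.63 in the mock extraction and 29.1 with ManGn, with controls that lay close together. Srxn1, sulfiredoxin, which repairs oxidized peroxiredoxins, was at 7.07 with water, 13.7 in the mock extraction and 42.4 with ManGn, a ratio of 2.57 over water and 1.62 over the mock extraction. Me1, malic enzyme, a source of NADPH, was at 3.7, 6.18 and 17.4. Esd, an esterase that clears formaldehyde adducts and was named after its values were seen, was at 95.3, 99.9 and 234. The catalytic subunit Gclc did not follow, with ratios of 0.34 over water and 0.36 over the mock extraction, and Nqo1 was listed at 0.06, 0.19 and 0.06. Sqstm1, an autophagy receptor and NRF2 target, was at 116 with water, 298 in the mock extraction and 444 with ManGn, of which the mock extraction already showed the larger step over water. Nfe2l2, which encodes NRF2 itself, was at 57.5 with water, 122 in the mock extraction and 107 with ManGn.

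Heme and iron genes overlap with this list. Fth1, the ferritin heavy chain, was at FPKM 2737 with water, 3447 in the mock extraction and 8049 with ManGn, a ratio of 1.56 over water and 1.22 over the mock extraction, and Ftl1, the light chain, at 3201, 2305 and 4562. The iron exporter gene Slc40a1 was low at 0.23, 0.38 and 1.15. The transferrin receptor gene Tfrc was at 6.0 with water, 19.6 in the mock extraction and 19.8 with ManGn, level with the mock extraction. Of 20 tested iron genes 8 were higher and 2 lower over water, and 3 were higher and 2 lower over the mock extraction, with a median of 0.46 and -0.05.

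**Figure D2:**
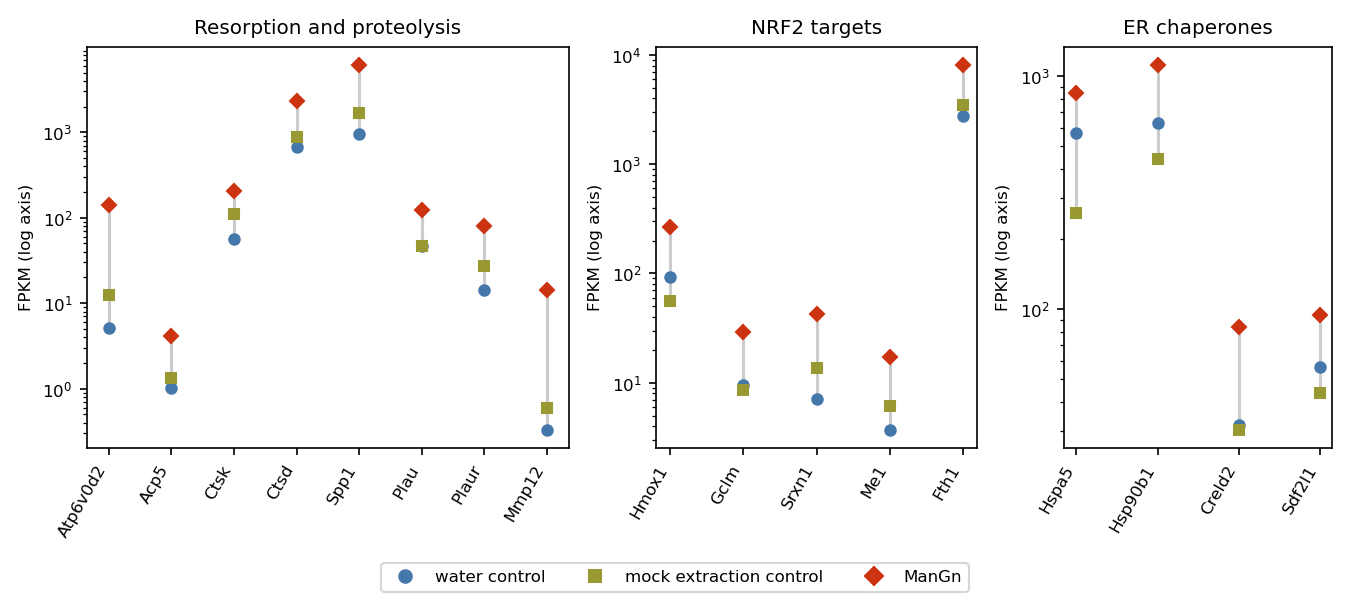
FPKM on a log axis in the water control (circle), the mock extraction control (square) and the ManGn library (diamond), 1 library each, for resorption and protease genes, NRF2 targets and ER chaperones. The ManGn value is the highest of the 3 for each gene shown, and the order of the 2 controls differs between genes.

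Part of the ER chaperones stood above both controls. The unfolded protein response raises chaperones through the factors ATF6 and XBP1 and amino acid genes through ATF4. Of 40 tested genes for ER folding 5 were at least 2-fold higher and 1 lower over water, 9 were higher and 1 lower over the mock extraction, and the median was 0.36 and 0.35. Hspa5, the main ER chaperone BiP, was at FPKM 574 with water, 258 in the mock extraction and 852 with ManGn. Because the mock extraction lay below water, its ratio was 0.57 over water and 1.72 over the mock extraction. Hsp90b1, the ER form of HSP90, was at 633 with water, 443 in the mock extraction and 1117 with ManGn, 0.82 over water and 1.33 over the mock extraction on the log2 scale. Creld2, an ER stress protein, was at 31.6 with water, 30.2 in the mock extraction and 83.5 with ManGn, with both controls alike, and ManGn stood 2.64-fold (interval 2.36 to 2.962) above water. The coat protein gene Sec24d, which carries cargo out of the ER, was at 8.16, 8.17 and 18. The disulfide isomerase Pdia4 (53.6, 39.1 and 112) and the secreted factor Manf (80.3, 42.5 and 117), named after their values were seen, had the order of Hspa5. Xbp1 and its target Dnajb9 were level, with ratios of -0.19 and -0.32 over water and 0.05 and 0.03 over the mock extraction. In the cytosol the chaperone gene Hsph1 was at 19.6 with water, 21.6 in the mock extraction and 43.5 with ManGn, a ratio of 1.15 over water and 1.01 over the mock extraction. Hsp90aa1 was at 114 with water, 235 in the mock extraction and 341 with ManGn, past 2-fold over water only, and the heat shock factor Hsf1 was level at 16.9, 17.4 and 17.5.

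ATF4 targets showed no difference from water as a list but were lower than in the mock extraction. ATF4 is translated when the kinases of the integrated stress response act, and it turns on amino acid synthesis and transport. Of 42 tested genes of 47, 2 were at least 2-fold higher and 4 lower over water, while 0 were higher and 20 lower over the mock extraction, against a background of 3.12%. The median was -0.04 over water and -0.98 over the mock extraction, and the mock extraction itself stood 0.78 above water. Trib3, a pseudokinase and ATF4 target, was at FPKM 4.85 with water, 39.1 in the mock extraction and 4.79 with ManGn. Ddit3, which encodes the stress factor CHOP, was at 25.8 with water, 159 in the mock extraction and 29.6 with ManGn, and Chac1, which degrades glutathione, was at 1.07, 16.2 and 2.93. For these genes the mock extraction was high and water and ManGn were low. Other members were lower than both controls. Aldh1l2, a mitochondrial folate enzyme, was at 30.9 with water, 21.7 in the mock extraction and 3.62 with ManGn, a ratio of -3.06 over water and -2.55 over the mock extraction. The stress protein gene Nupr1 was at 128 with water, 219 in the mock extraction and 37.0 with ManGn, and Pck2, mitochondrial PEP carboxykinase, at 27.5, 34.98 and 9.98. Asns, asparagine synthetase, was at 81.3, 133 and 47.8, under 2-fold below water. Atf4 itself was at 79.2 with water, 261 in the mock extraction and 99.97 with ManGn.

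Hypoxia genes gave opposite answers against the 2 controls. Hypoxia-inducible factors turn on glycolysis, angiogenic signals and mitophagy when oxygen is low. Of 31 tested genes 0 reached 2-fold higher over water and 12 were lower, 38.7% against a background of 7.47%, while 7 were higher and 0 lower over the mock extraction. The mock extraction itself was lower than water, with 18 of the 31 at least 2-fold lower and a median of -1.23. Adm, the vasodilator peptide adrenomedullin, was at FPKM 66.9 with water, 5.83 in the mock extraction and 27.1 with ManGn, so its ratio was -1.30 over water and 2.20 over the mock extraction. The oxygen sensor gene Egln3 (3.57, 0.37 and 2.62), the angiogenic factor gene Vegfa (48.5, 20.6 and 34.1) and the mitophagy receptor gene Bnip3 (389.5, 163 and 293) also lay between the controls. So did P4ha2 and Ero1l, which hydroxylate and oxidize proteins in the ER and were named after their values were seen, at 7.68, 0.91 and 3.1 and at 525, 83.03 and 171. Ndrg1 (631, 215 and 179) and Ddit4, an inhibitor of the growth kinase mTORC1 (16.1, 4.08 and 2.4), were lower with ManGn than with either. Selenbp1, which oxidizes methanethiol, was at 238 with water, 23.2 in the mock extraction and 27.3 with ManGn, with the mock extraction and ManGn alike.

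Glycolysis had 1 of 22 genes at least 2-fold higher and 5 lower over water, and 3 higher and 0 lower over the mock extraction. The summed FPKM of the 22 was 25900 with water, 17640 in the mock extraction and 18440 with ManGn, and the list had a median of -0.04 over water and 0.22 over the mock extraction. Slc2a1, the glucose transporter GLUT1, was at FPKM 102 with water, 63.5 in the mock extraction and 164 with ManGn, the highest of these values, and ManGn stood 1.6-fold (interval 1.53 to 1.67) above water and 2.58-fold (2.45 to 2.72) above the mock extraction. The hexokinase gene Hk3 was at 19.9, 30.8 and 61.95, past 2-fold over both. Pfkfb3, which makes the activator of phosphofructokinase, was at 68.7 with water, 11.97 in the mock extraction and 18.9 with ManGn, and Gpi1, glucose phosphate isomerase, at 1196, 569 and 498. Both were at least 2-fold lower than water, and neither was 2-fold apart from the mock extraction. Lactate dehydrogenase Ldha was within 2-fold at 1398, 1239 and 1650.0.

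**Figure D3:**
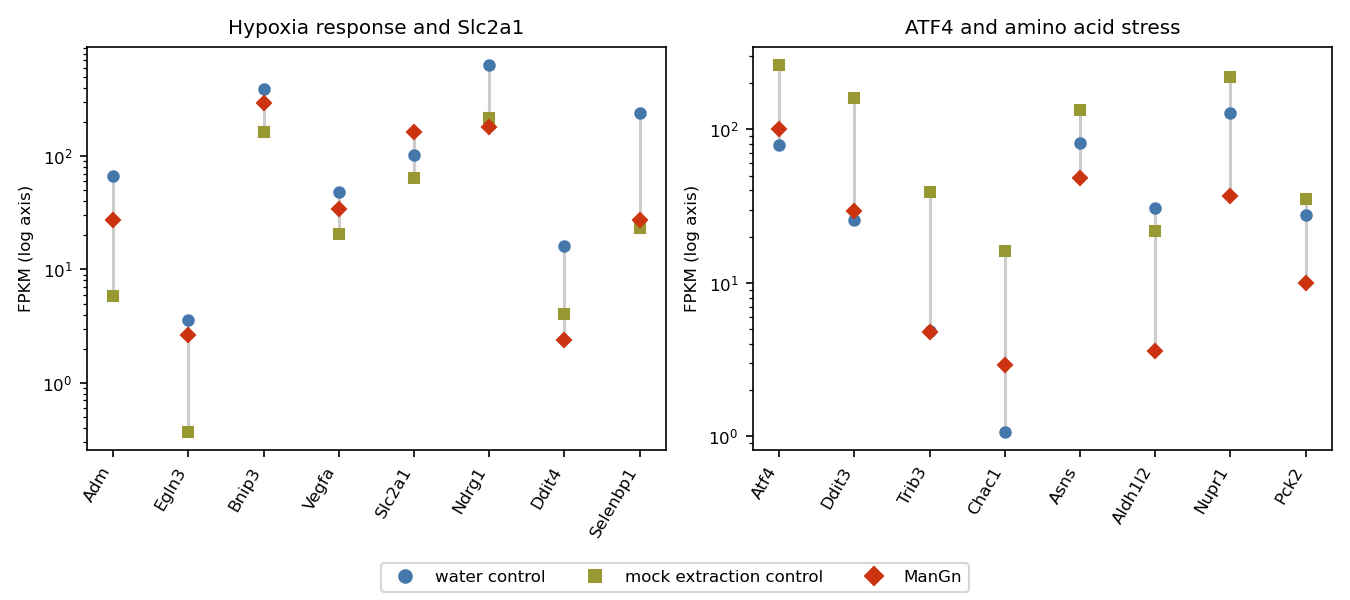
FPKM on a log axis in the water control (circle), the mock extraction control (square) and the ManGn library (diamond), 1 library each, for hypoxia genes with Slc2a1 and for ATF4 targets. Adm, Egln3, Bnip3 and Vegfa lie between the controls with ManGn, while Trib3 is at 39.1 with the mock extraction and at 4.85 and 4.79 with water and ManGn.

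The protein synthesis machinery split into parts that stood apart from water in opposite directions. Of 82 tested genes for cytosolic ribosomal proteins, of 85 listed, 79 lay below water and 3 above, and 77 lay below the mock extraction and 5 above. At least 2-fold lower than water were 21, 25.6%, and 1 was higher. The median was -0.84 over water and -0.37 over the mock extraction, where 0 were 2-fold lower and 1 was higher. The summed FPKM of the 82 was 128500 with water, 90820 with the mock extraction and 69340 with ManGn. Rplp0, the large stalk protein, was at 1742 with water, 1231 in the mock extraction and 947 with ManGn, and Rps6, the small subunit protein phosphorylated by S6 kinase, was at 1877, 1482 and 1060.0. Rpl36 had the lowest ratio over water, -1.31, and -0.95 over the mock extraction. Rpl30 went the other way at 23.04, 39.6 and 59.4. Genes of this family have many processed pseudogenes, so single members are uncertain. Ribosome biogenesis genes, which make and fold ribosomal RNA, were higher than water in 61 of 67, and 19 were at least 2-fold higher, 28.4%, with 0 lower. Over the mock extraction 0 were 2-fold higher or lower, and the median went from 0.73 to 0.09. Grwd1, a histone-binding ribosome assembly factor, was at 3.09, 7.68 and 11.8, and the methylation guide proteins Nop56 and Nop58 were at 58.5, 139.7 and 119 and at 34.3, 85.8 and 81.7. Small nucleolar RNA genes, which guide those modifications, had 34 of 70 at least 2-fold higher and 12 lower over water and 31 higher and 6 lower over the mock extraction. Of the 70, 25 were under FPKM 1 with water and 12 with ManGn and so entered through the other library, which sets their direction. Their FPKM rest on a few reads each, and the median was 0.96 and 0.71. MicroRNA genes, as short, had 27 of 58 higher and 21 lower over water and 22 higher and 11 lower over the mock extraction, so their median of 0.53 stood for both directions. Of the 58, 20 were under FPKM 1 with water and 20 with ManGn and so entered through the other library, which sets their direction.

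Protein breakdown, DNA replication and mitosis did not move alike. Of 49 proteasome genes 44 lay above water and 43 above the mock extraction, 8 were at least 2-fold higher and 1 lower over water, 0 were past 2-fold over the mock extraction, and the median was 0.54 and 0.25. The lid subunit gene Psmd12 was at FPKM 38.9 with water, 56.4 in the mock extraction and 97.6 with ManGn and the base ATPase Psmc4 at 34.3, 95.6 and 108. The immunoproteasome subunit gene Psmb9 was lower at 26.9, 19.6 and 13.2. DNA replication genes had 11 of 54 at least 2-fold higher over water and 0 over the mock extraction, and the median changed sign, from 0.27 to -0.31. The helicase gene Mcm2 was at 19.5 with water, 50.4 in the mock extraction and 43.02 with ManGn, the clamp gene Pcna at 117, 259 and 253, and cyclin E2 Ccne2 at 5.08, 14.1 and 16.4. Mitosis genes had almost the same median over both, -0.48 and -0.50, with 46 of 54 below water and 52 below the mock extraction, and 6 and 2 at least 2-fold lower. Prc1, which bundles spindle microtubules, was at 110.4 with water, 86.95 in the mock extraction and 49.9 with ManGn, and the chromosomal kinase gene Aurkb was at 90.3, 57.3 and 41.2. Ccnb1, cyclin B1, and Cdk1 were within 2-fold of both controls.

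Few respiratory chain genes were past 2-fold. Over water 0 of 36 complex I genes reached 2-fold higher and 1 was lower, and 0 of 17 ATP synthase genes were past 2-fold. Their medians were -0.12 and 0.04 over water and 0.01 and 0.06 over the mock extraction. Citrate cycle enzymes had a median of -0.07 over water, with 1 of 25 higher and 1 lower, and 0.05 over the mock extraction. The lower gene was Pcx, pyruvate carboxylase, at FPKM 9.08, 2.66 and 2.36. In complexes III and IV 1 of 23 was higher and 2 lower over water, and 0 were higher and 1 lower over the mock extraction. The heart and muscle subunit gene Cox6a2 was at 22.2 with water, 10.3 in the mock extraction and 1.35 with ManGn, while Cox4i1, Uqcrc1 and Uqcrc2 were within 2-fold.

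**Figure D4:**
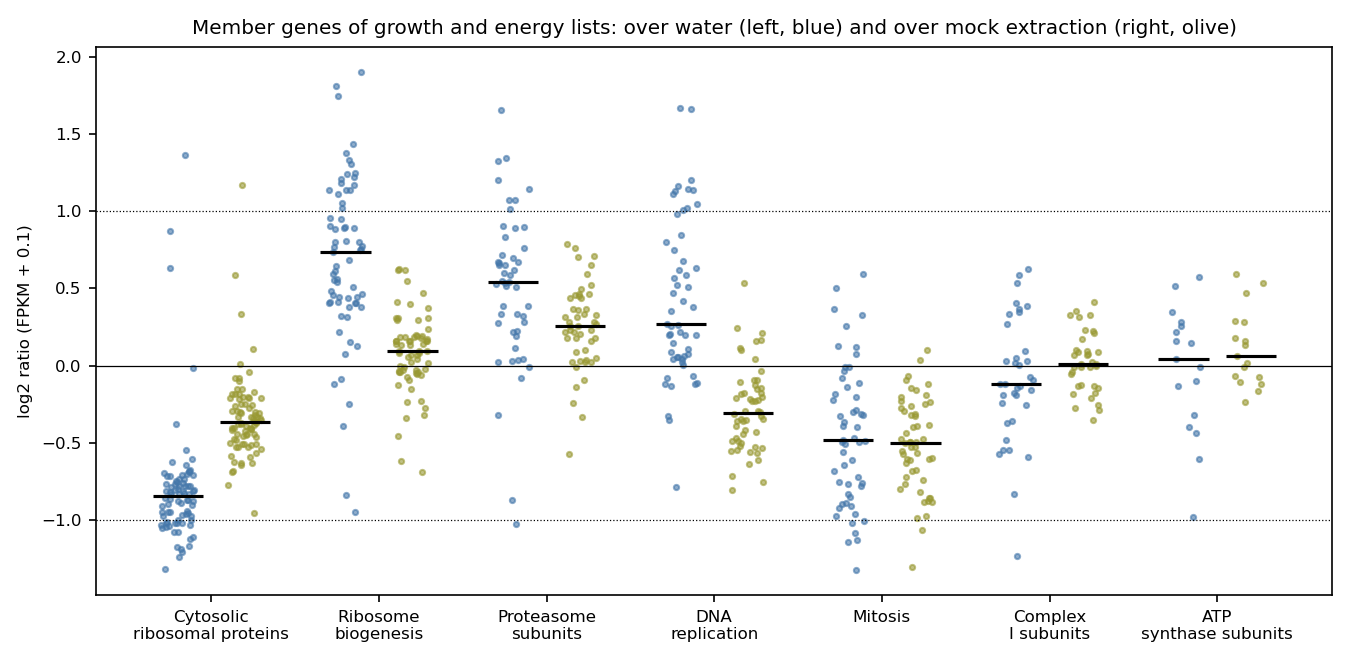
Log2 ratio (FPKM plus 0.1) of every tested member of 7 gene lists, with ManGn over water on the left of each pair and over the mock extraction on the right, each point 1 gene and each bar the list median. Most ribosomal proteins lie below 0 on both sides. Ribosome biogenesis has a median of 0.73 over water and 0.09 over the mock extraction, and respiratory subunits lie around 0.

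Of the genes that restrain growth or promote cell death, more were lower than higher over water. The FOXO list had 3 of 22 at least 2-fold higher and 9 lower over water, and 2 higher and 3 lower over the mock extraction. The p53 list had 2 of 31 higher and 10 lower over water, and 4 higher and 5 lower over the mock extraction. The MYC network, with its antagonists of the MXD family and the glucose-sensing arrestins, had 1 of 15 higher and 5 lower over water, and 1 higher and 3 lower over the mock extraction. The medians were -0.84, -0.78 and -0.69 over water, and 0.01, 0.02 and -0.13 over the mock extraction. The 1 higher gene of the MYC network was Myc itself, at FPKM 0.79 with water, 1.12 in the mock extraction and 4.7 with ManGn. It was at least 2-fold above both controls, but under FPKM 1 with water, and so entered through ManGn alone. Arrdc4, an arrestin that lowers glucose uptake, was at FPKM 27.7 with water, 9.84 in the mock extraction and 4.82 with ManGn, a ratio of -2.50 over water and -1.01 over the mock extraction. S1pr1, a FOXO target and receptor for a lipid that guides cell exit from tissue, was at 9.51 with water, 18.1 in the mock extraction and 2.87 with ManGn. Other FOXO list members went the other way. Klf2 (9.12, 7.02 and 23.3) and Il7r (1.32, 17.5 and 38.3) were the 2 members at least 2-fold above both controls. Cdkn1a, the cell cycle inhibitor p21, was at 436 with water, 125 in the mock extraction and 173 with ManGn, and the cyclin gene Ccng2 at 62.3, 18.9 and 19.3. Both were lower than water but not than the mock extraction. The autophagy kinase Ulk1 was at 14.1, 6.82 and 4.64 and Trp53inp1 at 10.1, 2.1 and 1.15. Against the direction of its list, the p53 target Plk2, a polo-like kinase, was at 3.99 with water, 3.53 in the mock extraction and 31.4 with ManGn, 7.87-fold (interval 6.45 to 9.69) above water and 8.9-fold (7.2 to 11.1) above the mock extraction.

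Of 18 tested death regulators of the BCL2 family 3 reached 2-fold higher and 4 were lower over water, and 1 was higher and 3 lower over the mock extraction. Of the BH3-only activators of death, Bbc3 was at FPKM 42.2 with water, 26.5 in the mock extraction and 4.88 with ManGn, Bmf at 6.22, 2.77 and 0.67 and Bcl2l11, which encodes BIM, at 12.3, 8.75 and 4.08. All of these were at least 2-fold lower with ManGn than in either control. Bcl2l1, which encodes the survival protein BCL-XL, was at 7.83 with water, 20.2 in the mock extraction and 47.1 with ManGn, 6.019-fold (interval 5.16 to 7.08) above water and 2.33-fold (2.1 to 2.6) above the mock extraction. The survival gene Bcl2a1d was at 9.49, 37.3 and 39.3, level with the mock extraction, and its near-identical copies make that value uncertain. Mcl1, Bcl2 and Bax were within 2-fold of both, and the list had a median of -0.08 over water and -0.06 over the mock extraction. The death receptor gene Fas was at 6.47, 4.53 and 1.26, and the receptor gene Tnfrsf14 at 5.02, 4.44 and 1.13.

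Clock and output genes had 0 of 16 at least 2-fold higher and 7 lower over water, with a median of -0.89, and over the mock extraction 1 of 16 was higher and 1 lower, with a median of 0.04. Per1, a repressor in the circadian loop, was at FPKM 54.6 with water, 13.4 in the mock extraction and 15.5 with ManGn, and Nr1d1, the nuclear receptor REV-ERBα, at 25.7, 4.18 and 6.22. The clock driver Arntl was within 2-fold. Dbp, an output factor, was the 1 member at least 2-fold lower than both, at 25.7, 4.22 and 1.94.

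**Figure D5:**
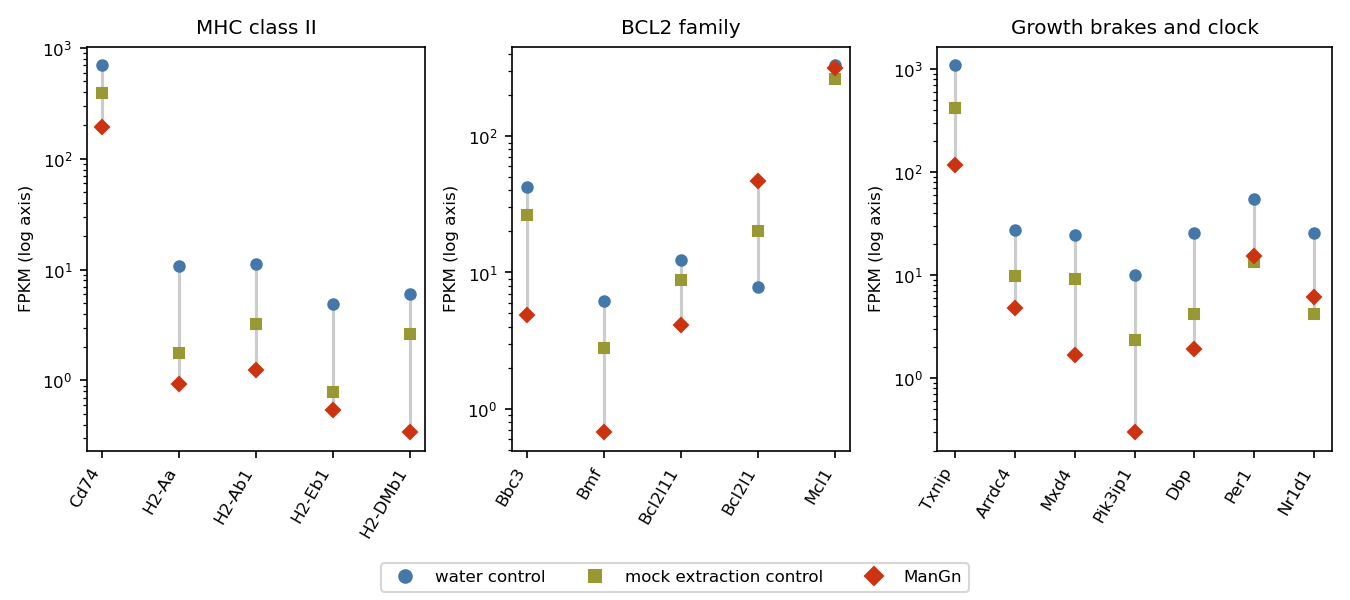
FPKM on a log axis in the water control (circle), the mock extraction control (square) and the ManGn library (diamond), 1 library each, for MHC class II genes, BCL2 family members, and growth brakes and clock genes. ManGn is the lowest of the 3 for the MHC class II genes, Bbc3, Bmf and Bcl2l11, and the highest for Bcl2l1, while Per1 and Nr1d1 with ManGn lie next to the mock extraction.

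MHC class II was the list furthest below water. Most of its genes serve to present extracellular peptides to CD4+ T cells and depend on the coactivator CIITA. The list also holds the costimulatory genes Cd80 and Cd86. Of these only Cd80 was tested, with a ratio of 0.05 over water. Of 14 listed genes 10 were tested, and 9 were at least 2-fold lower over water, against a background of 7.47%. Of the 10, 6 were under FPKM 1 with ManGn and so entered through water alone, which sets their direction. Over the mock extraction 5 were at least 2-fold lower, and the median was -2.84 over water and -0.95 over the mock extraction. The mock extraction was itself below water, with 6 of the 10 at least 2-fold lower. H2-Ab1, a beta chain, was at FPKM 11.2 with water, 3.21 in the mock extraction and 1.24 with ManGn, and H2-Aa, the alpha chain, at 10.7, 1.77 and 0.92. On H2-Aa the ratio over the mock extraction rested on 19.7 and 10.3 estimated reads, with an interval from 0.207 to 1.11. H2-DMb1, part of the peptide editor, was at 6.02 with water, 2.6 in the mock extraction and 0.34 with ManGn, and its near-identical copy makes that value uncertain. The invariant chain Cd74 was at 698 with water, 394 in the mock extraction and 195 with ManGn, and Ciita was below 1 in every library at 0.77, 0.85 and 0.08. Class I genes were closer, with 7 of 32 lower over water, 1 over the mock extraction and medians of -0.66 and -0.32. The light chain gene B2m was at 2627, 1988 and 1590.0, and the peptide transporter gene Tap1 at 27.4, 12.98 and 8.33. Nlrc5, the activator of class I genes, was within 2-fold of both controls. Of the costimulatory genes Cd40 was at 7.26, 2.29 and 1.79, Cd274 and Cd80 were within 2-fold, and the 17 tested had a median of 0.02.

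Part of the immediate-early transcription factors, named for their fast response to stimuli, stood above both controls at 24 h. Of 27 immediate-early genes 8 reached 2-fold higher over water and 2 were lower, and 10 were higher and 1 lower over the mock extraction, with medians of 0.39 and 0.52. Egr2 was at FPKM 6.99 with water, 2.96 in the mock extraction and 16.1 with ManGn and Egr3 at 2.62, 1.98 and 11.1, both zinc finger factors downstream of growth signals. ManGn stood 4.24-fold (interval 3.4 to 5.3) above water for Egr3. Klf2, a factor that restrains macrophage activation, was at 9.12 with water, 7.02 in the mock extraction and 23.3 with ManGn, a ratio of 1.34 over water and 1.72 over the mock extraction. Fos and Jun lay between the controls, at 3.68, 13.7 and 10.5 and at 13.6, 26.2 and 18.4. Genes that dampen ERK signalling had 6 of 16 at least 2-fold higher over water and 4 over the mock extraction, with 0 lower over either and medians of 0.52 and 0.28. Of the 16, 3 were under FPKM 1 with water and so entered through ManGn alone, which sets their direction. Dusp5, an ERK phosphatase, was 1 of these, low at 0.7, 0.35 and 3.11. Phlda1 was at 2.09, 1.27 and 6.55, and Dusp6, Spry2 and Spred1 were within 2-fold.

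Inflammatory genes differed by class. Of 29 chemokines 13 were tested, with 9 at least 2-fold higher and 0 lower over water, 7 higher and 2 lower over the mock extraction, and medians of 2.11 and 1.80. Of the 13, 4 were under FPKM 1 with water and so entered through ManGn alone, which sets their direction. The median FPKM of the 13 chemokines was low, at 1.54 with water, 4.44 in the mock extraction and 3.38 with ManGn. Ccl3, a chemokine for monocytes and T cells, was at FPKM 125 with water, 109 in the mock extraction and 576 with ManGn, the most abundant of them, and ManGn stood 5.29-fold (4.92 to 5.71) above the mock extraction. Cxcl2, a neutrophil chemokine, was at 1.49 with water, 5.13 in the mock extraction and 46.6 with ManGn. The cytokine gene Tnf was at 9.88 with water, 13.9 in the mock extraction and 73.6 with ManGn, 7.45-fold (interval 6.29 to 8.82) above water, while the NF-κB subunit Rela and the inhibitor Nfkbia were within 2-fold. The wider NF-κB list had 7 of 34 at least 2-fold higher and 1 lower over water, 6 higher and 2 lower over the mock extraction, and a median of 0.27 over water and -0.24 over the mock extraction. Interferon-stimulated genes had 14 of 54 at least 2-fold higher and 4 lower over water and 3 higher and 0 lower over the mock extraction, with medians of 0.28 and -0.12. The 2 above both controls were Irf7, at 6, 5.73 and 16.85, and Cxcl10, at 0.54, 0.9 and 3.38. Cxcl10 rested on 5.8 estimated reads with water and 9.7 in the mock extraction. Of the 54, 3 were under FPKM 1 with water, Cxcl10 among them, and so entered through ManGn alone. The DNA-sensing pathway genes Tmem173 (STING), Mb21d1 (cGAS) and Tbk1 were within 2-fold of both at 4.79, 11.4 and 7.8, at 11.6, 12.4 and 10.9 and at 29.97, 27.6 and 32.9. In the JAK-STAT list 0 of 23 tested genes were past 2-fold over either control, and Socs3 was at 2.57, 3.03 and 3.75. Toll-like receptors and adaptors had 6 of 25 at least 2-fold higher and 1 lower over water, and 0 higher and 2 lower over the mock extraction. Tlr4, the receptor for lipopolysaccharide, was at 10.5 with water, 32.03 in the mock extraction and 23.2 with ManGn, and Tlr13, for bacterial ribosomal RNA, at 4.13, 34.1 and 23.5.

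Macrophage identity genes had 3 of 32 at least 2-fold higher and 4 lower over water, but 0 higher and 7 lower over the mock extraction, below which 28 of the 32 lay. The medians were 0.04 over water and -0.38 over the mock extraction. At least 2-fold lower than both were 4 members. Among these, Itgam, the integrin chain CD11b, was at FPKM 104 with water, 136 in the mock extraction and 49.8 with ManGn, and the sialic acid receptor gene Cd33 at 41.3, 45.5 and 18.6. Cd14, the co-receptor for lipopolysaccharide, was at 64.9 with water, 254 in the mock extraction and 367 with ManGn, past 2-fold over water only. Lysozyme Lyz2 and Cd68 were level. C-type lectins had 7 of 20 higher and 2 lower over water and 2 and 2 over the mock extraction. Clec4e, the receptor Mincle for glycolipids, was at 13.98 with water, 53.6 in the mock extraction and 138 with ManGn, and Mrc1, the mannose receptor, was low at 1.85, 3.43 and 1.06. The leukotriene enzyme gene Alox5 was at 54.5 with water, 47.03 in the mock extraction and 17.6 with ManGn, a ratio of -1.62 over water and -1.41 over the mock extraction, and Odc1, the first enzyme of polyamine synthesis, was at 47.8, 64.6 and 155. In the actin and adhesion list Actb and Marcksl1 were near the mock extraction at 423, 1205 and 1096 and at 17.1, 65.4 and 73.5. The small GTPase gene Rhob was above both at 4.74, 5.04 and 12.8, and the integrin gene Itgb5 below both at 25.2, 20.8 and 7.59.

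The enzymes that make and clear free glycans, the chemical family of the ligand, were close to both controls. Of 56 genes, all tested, 3 were at least 2-fold higher and 1 lower over water, and 0 were higher and 1 lower over the mock extraction, with medians of 0.05 and 0.03. The gene lower than both was Man2b1, the lysosomal alpha-mannosidase, at FPKM 52.4 with water, 46.2 in the mock extraction and 21.9 with ManGn. ManGn stood at 0.419 (interval 0.386 to 0.454) times water and 0.475 (0.437 to 0.516) times the mock extraction. Manba, the lysosomal beta-mannosidase that cleaves ManGn, was at 23.9 with water, 26.8 in the mock extraction and 19.4 with ManGn, and Engase, which makes free glycans with 1 N-acetylglucosamine, was at 3.7, 3.11 and 2.19. The deglycosylase gene Ngly1 was at 4.5, 5.38 and 4.45. The oligosaccharyltransferase genes Stt3a and Stt3b had ratios of 0.21 and 0.05 over water and 0.33 and 0.45 over the mock extraction. Trex1, which encodes the nuclease lost in the cells that gave the fOS pool, was at 14.4, 19.02 and 9.9.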

How the data were processed

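Total RNA from 4 cultures of RAW264.7 cells was sequenced, with 1 library per condition. The authors deposited FPKM values per gene, made with RSEM per the sample records, in 1 table of 17655 genes. The build of the genome, the aligner and RSEM's version were not given in the sources used here. The other sheets of the workbook repeat those FPKM values or hold the authors' own ratios and chosen immune genes, and were not used.

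Samples were grouped by the treatment in the sample records. Ratios were log2 of FPKM plus 0.1, over genes with FPKM of at least 1 with ManGn or water, and genes were called at 2-fold. The 53 lists were described by counts and medians, with a threshold of 0.5. Members and lists were chosen with earlier results of these data known. Genes were named by rule: the core genes of each list, up to 4 members per list with the largest ratios and FPKM of at least 5 with ManGn or water, and by the same minimum the 25 highest and 25 lowest genes. Not every gene the rule names is reported here. Any other gene is said to be named or chosen after the values were seen. List members were matched by symbol or Entrez Gene ID. As deposited, 25 symbols had turned into dates, and genes with near-identical copies are uncertain.

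Depth was estimated, for genes with 1 transcript of 400 to 1500 nucleotides in GENCODE M21, as the read total that brought the largest share of low FPKM values (0.5 to 6 reads) within 0.1 of a whole number of reads. That share was 65.1% to 69.4%. FPKM divides by length and total, so a few abundant genes can shift all others. Intervals are exact 95% binomial intervals on estimated reads. Promoters are RefSeq sequences. The ratio and median steps were tested on simulated data. Alternatives were the control, the pseudocount, the filter on low values, the scaling and the fold. Python 3.11.15, pandas 2.3.3, numpy 2.4.6, SciPy 1.17.1 and matplotlib 3.10.9 were used.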

Additional observations from a re-analysis of the deposited data

How the results depend on the processing

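With 1 library per condition no result could be set against replicate spread, and a value is counted as moved past 0.1 on the log2 scale. No paired analysis was possible because each condition has 1 library. The count of genes at least 2-fold higher was 1055 over water, 392 over the mock extraction and 342 over the mean of both controls, each over the genes that passed the filter in its own libraries, and 367 at 3-fold over water. The count of lower genes was 822 over water, then 387, 450 and 278 in the same order, 522 at FPKM of at least 5 and 1283 with no filter. Counts do not say that the genes were shared. The number of higher lists went from 11 to 5 over the mock extraction, 7 over the mean of both controls, 5 with no filter, and 7 both with centring on the median and with equal upper quartiles. The number of lower lists went from 9 to 3 over the mock extraction. These counts do not say that the lists were shared. With members filtered on ManGn and water, 1 of the 9 lower lists held over the mock extraction. Among lists past 0.5 and named genes past 2-fold over water, the sign turned over the mock extraction for the medians of the hypoxia (0.41), clock (0.045), FOXO (0.013) and p53 (0.0041) lists, with members filtered on those libraries. It also turned for Adm (2.20), P4ha2 (1.66), Ero1l (1.04), Pfkfb3 (0.66), Nr1d1 (0.56), Cdkn1a (0.47), Selenbp1 (0.24), Per1 (0.21) and Ccng2 (0.032), and for Chac1 (-2.43), Tlr13 (-0.53), Tlr4 (-0.47), Fos (-0.38), Msr1 (-0.37), Mcm2 (-0.23), Nop56 (-0.23), Actb (-0.14), Nop58 (-0.071) and Pcna (-0.033). Chac1 turned over the mean of both controls too (-1.53). The cause was not tested. Of 189 named genes 60 moved with a pseudocount of 1 and 12 with 0.01.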

Other observations

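Further groups were chosen after the values were seen, and some of their genes are also in the 53 lists. Long RNAs can host small nucleolar RNAs in their introns. Of 12 such host genes 10 were tested, 6 were at least 2-fold lower and 0 higher over water, and 4 were lower and 0 higher over the mock extraction, with medians of -1.33 and -0.35. Snhg1 was at FPKM 115 with water, 88.8 in the mock extraction and 29.2 with ManGn, 0.254 (interval 0.214 to 0.3) times water and 0.329 (0.276 to 0.391) times the mock extraction. Snhg5 was at 36.6, 32.2 and 11.6 and Snhg12 at 23.2, 20.4 and 7.79, while Gas5, another host, was at 23.8, 23.2 and 29.3. Other messages that share the terminal pyrimidine start of ribosomal protein messages were lower than water too, 16 of 17 below it and 15 of 17 below the mock extraction, with medians of -0.73 and -0.22. The elongation factor genes Eef1a1 and Eef2 were at 8760.0, 6363 and 5203 and at 1869, 1349 and 953. Mitochondrial ribosomal proteins did not follow, with 4 of 76 at least 2-fold higher and 0 lower over water and a median of 0.19. Cytosolic tRNA synthetases, many of them already counted in the ATF4 list, had medians of 0.01 over water and -0.57 over the mock extraction.

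Among the 25 highest genes, Spink5, a serine protease inhibitor of skin, was at FPKM 2.48 with water, 3.63 in the mock extraction and 37.3 with ManGn, 10.3-fold (8.77 to 12.1) above the mock extraction, and the anchoring protein gene Akap2 was at 0.53, 1.38 and 12.5. Tm4sf19, a tetraspan protein of osteoclasts, was at 1.44, 11.03 and 32.3. Hal, which breaks down histidine, and the retinol dehydrogenase gene Dhrs9 stood nearer to the mock extraction, at 0.29, 3.19 and 9.04 and at 3.62, 37.2 and 66.7. Chosen after the values were seen, the metal-binding genes Mt1 (211, 179.8 and 454) and Mt2 (157, 232 and 536), the tetraspanin gene Cd9 (191, 158 and 455) and the integrin gene Itgax (1.49, 4.35 and 9.7) were at least 2-fold above both controls. Of others chosen in that way, the signalling brake Rgs1 was at 18.6 with water, 71.6 in the mock extraction and 181 with ManGn and Rgs16 at 0.34, 0.25 and 3.34. Below both, and also chosen so, were the sodium-proton exchanger gene Slc9a9 (4.38, 2.68 and 0.7) and the factor Klf11 (5.87, 3.49 and 1.47).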
